A study of Mus musculus with 6 samples.

Results

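Mitosis and spindle genes are the genes whose proteins carry a cell from entry into mitosis to its division, and 40 of them were followed here in crypts of the mouse colon. The members were listed by name, and a member was measured by every array probe set annotated to that gene alone. Such a probe set was found for 38 of the 40 members. No probe set for that gene alone was found in the table used here for Ccnb1, the main cyclin partner of Cdk1, or for Cdca8, the borealin subunit of the chromosomal passenger complex. The 38 members had 66 probe sets, of 20380 with 1 gene symbol on the array. After a filter on low intensities 37 members remained among 7456 genes tested.

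Messenger RNA was measured on 6 Affymetrix arrays in 3 groups of 2, each array with RNA of crypts, the epithelial glands of the colon. All mice were male and heterozygous for Lgr5-lacZ, with a lacZ reporter placed in Lgr5, a stem cell receptor gene, so the controls carry that allele too. Control crypts were taken from the distal colon of untreated mice of 6 to 8 weeks, 2 animals to a pool, and DSS crypts from mice of that age on day 2 of drinking 1% dextran sulfate sodium, a polysaccharide that injures the colonic epithelium. Tumor crypts were taken from pools of 12 adenomas of 2 mice, 90 days after the mice, then 6 to 8 weeks old, had received the carcinogen azoxymethane (AOM) at 12.5 mg per kg. These mice had drunk DSS in cycles of 5 days at 2%, 1.5% and 1.0% from 5 days after AOM, with 14 days of plain water after a cycle. They were therefore older than the others at collection, and age, carcinogen, the DSS cycles and tumor cannot be told apart. According to the labels the 2 pools in each group are biological replicates, and p-values measure only the spread between such pools.

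At the entry into mitosis the kinase Cdk1, bound to cyclins, starts a program in which chromosomes condense, the nuclear envelope breaks down and a spindle of microtubules is built. The spindle checkpoint holds back the anaphase promoting complex until every chromosome is attached, and that complex then marks securin and the cyclins for destruction. Most of these genes are transcribed late in the cell cycle, and in the colon the cells that divide lie in the lower part of the crypt. In bulk RNA of whole crypts, fewer cells of a type and less RNA per cell cannot be told apart.

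Values were MAS5 intensities on a linear scale. Changes are differences of log2(intensity + 17.8), with their standard error (SE) from a fit of all 3 groups, n = 2 and 2 arrays in every comparison. A change is called where limma's p, adjusted by Benjamini-Hochberg over all genes tested, is under 0.05. Because of the added constant a change is smaller than the ratio of intensities for dim probe sets. Median intensities lay between 94.2 and 106.1 on the control and DSS arrays and were higher on the tumor arrays, at 111.6 and 130.6. All 11 epithelial markers (Epcam, Cdh1, keratins, claudins and others) were above the median of every array, with summed intensities of 76063 to 91597. Single markers differed between groups, and in tumor against control Krt18 was called higher (0.63 ± 0.15) and Cdx1 lower (-0.80 ± 0.20). In DSS against control none was called, with Krt20 at -0.76 ± 0.19. For actin the log2 ratio of 3' over 5' probe sets, which reflects RNA quality, was lower on the tumor arrays (0.95 and 1.04) than on the other 4 (1.20 to 1.63). Poly-A spike-in controls had a mean intensity of 777 for control replicate 1 and of 1168 for DSS replicate 1, while the remaining arrays had 312 to 394.

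Promoter sequences were compared because genes of this class share short motifs near their starts. The box CCAAT binds the factor NF-Y, and the letters TTTGAA, or with one base changed TTTAAA, are the core of the cell cycle genes homology region. RefSeq windows (GRCm38.p6, 250 bases before to 50 after the start of a gene) matched 33 members with 36 windows. CCAAT on either strand was found in 30 of the 36 windows (83.3%), against 37.4% of the 32851 windows of all genes. TTTGAA on either strand was found in 26 windows (72.2% against 17.9% of all windows). TTTAAA, which reads the same on both strands, was found in 8 (22.2% against 13.2%). CCAAT and at least 1 of the other motifs were found together in 27 of the 36 windows, against 10.7% of all windows and 7.32% of the 7894 windows of genes tested here. These are matches of letters and do not show binding.

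The windows of 6 members are printed 5′ to 3′ on the strand of the gene, with the searched motifs, on either strand, in capitals. Top2a, Plk1, Cdc20 and Ccnb2 stand for the pattern most members share, while Mad2l1 and Pttg1 hold none of the motifs in this window. Top2a lies at chr11:99024140-99024439 on the minus strand, Plk1 at chr7:122159185-122159484 on the plus strand and Cdc20 at chr4:118437294-118437593 on the minus strand. Ccnb2 lies at chr9:70421505-70421804 on the minus strand, Mad2l1 at chr6:66534971-66535270 on the plus strand and Pttg1 at chr11:43425932-43426231 on the minus strand.
Top2a: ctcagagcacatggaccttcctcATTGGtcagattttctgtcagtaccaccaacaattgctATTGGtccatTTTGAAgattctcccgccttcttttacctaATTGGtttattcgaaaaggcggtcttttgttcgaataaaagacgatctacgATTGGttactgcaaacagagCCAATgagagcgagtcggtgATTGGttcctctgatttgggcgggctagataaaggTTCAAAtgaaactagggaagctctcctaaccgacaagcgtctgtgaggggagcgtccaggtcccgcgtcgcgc
Plk1: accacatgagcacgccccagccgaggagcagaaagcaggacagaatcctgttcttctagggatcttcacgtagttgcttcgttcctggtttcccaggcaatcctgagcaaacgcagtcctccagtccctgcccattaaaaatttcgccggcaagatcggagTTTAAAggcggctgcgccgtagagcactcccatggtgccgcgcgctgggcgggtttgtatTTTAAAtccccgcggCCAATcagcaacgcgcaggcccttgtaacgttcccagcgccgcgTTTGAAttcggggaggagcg
Cdc20: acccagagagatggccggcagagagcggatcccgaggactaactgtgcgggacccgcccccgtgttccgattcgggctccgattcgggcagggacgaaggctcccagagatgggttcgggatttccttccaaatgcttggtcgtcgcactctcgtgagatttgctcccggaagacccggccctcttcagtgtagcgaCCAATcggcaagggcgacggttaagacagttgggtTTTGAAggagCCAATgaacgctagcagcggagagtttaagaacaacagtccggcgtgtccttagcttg
Ccnb2: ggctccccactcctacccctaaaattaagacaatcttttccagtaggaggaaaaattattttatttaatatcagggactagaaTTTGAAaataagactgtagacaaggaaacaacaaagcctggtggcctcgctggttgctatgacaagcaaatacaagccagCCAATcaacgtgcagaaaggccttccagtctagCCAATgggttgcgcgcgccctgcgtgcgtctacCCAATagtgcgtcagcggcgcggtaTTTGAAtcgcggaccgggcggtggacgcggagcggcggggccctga
Mad2l1: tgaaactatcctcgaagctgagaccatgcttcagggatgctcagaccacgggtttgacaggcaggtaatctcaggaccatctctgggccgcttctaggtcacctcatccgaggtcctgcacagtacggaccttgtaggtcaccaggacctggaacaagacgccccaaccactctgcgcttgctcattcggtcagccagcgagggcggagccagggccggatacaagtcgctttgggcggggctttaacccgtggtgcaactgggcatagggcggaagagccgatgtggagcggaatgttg
Pttg1: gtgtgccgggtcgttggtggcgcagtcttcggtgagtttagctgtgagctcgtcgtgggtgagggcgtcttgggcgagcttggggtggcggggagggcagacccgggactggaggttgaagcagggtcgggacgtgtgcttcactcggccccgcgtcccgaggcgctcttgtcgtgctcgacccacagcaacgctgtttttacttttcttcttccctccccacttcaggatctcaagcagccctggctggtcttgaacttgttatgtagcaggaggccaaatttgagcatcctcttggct
The Top2a window held CCAAT or its reverse at 6 places and the homology core at 2. Ccnb2 had 3 CCAAT boxes in the 87 bases before its start, and Cdc20 had 2 in the 53 bases before its start. Neither Nuf2 nor Nusap1 had any of the motifs either. Among the members whose tumor change is called higher below, 16 of 19 with a window held CCAAT with a core, as did 5 of the 10 not called. That is a description of small counts, with no test.

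The first comparison set tumor crypts against control crypts. Of the 37 members tested, 23 rose and 1, the securin gene Pttg1, fell. That is 62.2% of members higher, where 12.9% of all genes tested (959) were called higher and 9.75% (727) lower. The median change of the members was 0.90, against 0.05 over all genes, and 34 of the 37 changes were above 0. Both tumor arrays lay above both control arrays for 33 members, where this held for 33.8% of all genes. Among these 33, Nek2 passed the filter on low intensities only through its tumor arrays. With each array centred on its own median, 649 genes were called higher and 1225 lower, the median over all genes became -0.20, and 17 members were higher and 1 lower. Centring shifts every gene's change by the same amount, so the members' median is 0.85 above that of all genes in both forms by construction.

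**Figure D1:**
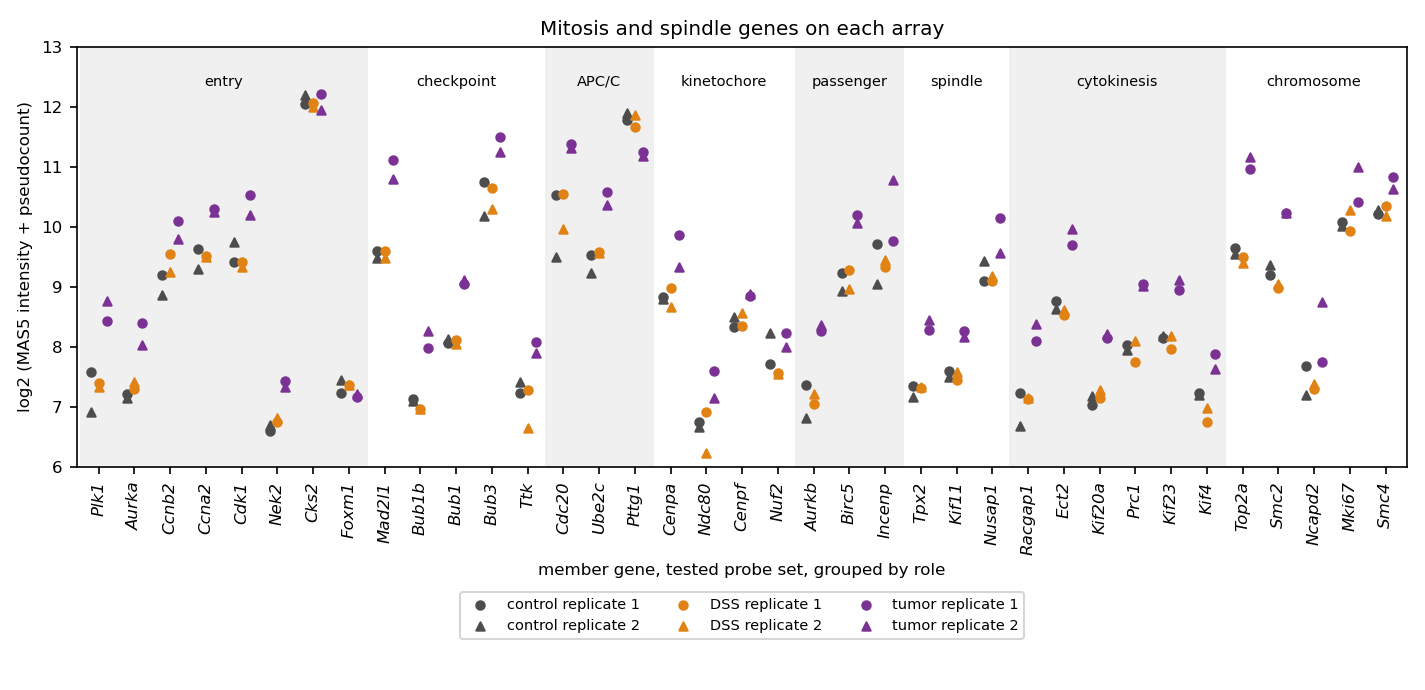
Level of each tested member on each array, as log2(MAS5 intensity + 17.8), grouped by role, with control arrays in grey, DSS arrays in orange and tumor arrays in purple (circle for replicate 1, triangle for replicate 2). For 33 of 37 members both tumor points lie above both control points, while Pttg1 and Foxm1 have both tumor points below them.

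Of 8 genes of mitotic entry, mostly kinases and cyclins, 5 rose, and the median of the 8 was 0.80. Plk1, the kinase that matures centrosomes and promotes mitotic entry, measured 174 and 103 on the control arrays, 151 and 143 on the DSS arrays, and 329 and 419.9 on the tumor arrays, replicate 1 first as in all lists of values here. Its tumor arrays were above all others, with a change of 1.36 ± 0.27 (adjusted p = 0.00949). Aurka, the Aurora kinase of spindle poles, measured 130.5 and 124 in control, 139 and 153 in DSS and 321 and 246 in tumor crypts. It rose by 1.04 ± 0.22 (adjusted p = 0.0132), again with no overlap. Cdk1 itself measured 665 and 841 in control, 664 and 624 in DSS and 1471 and 1163 in tumor crypts, a rise of 0.79 ± 0.19 (adjusted p = 0.0223). Cyclin B2 (Ccnb2), a partner of Cdk1, rose by 0.92 ± 0.21 to 1084 and 875 on the tumor arrays. Cyclin A2 (Ccna2), which acts from S phase on, measured 779 and 609 in control, 712 and 704 in DSS and 1249.5 and 1204 in tumor crypts (0.82 ± 0.18). Calls here rested in part on the scaling and on single arrays. With each array centred on its median the adjusted p was 0.0905 for Ccna2, 0.0794 for Ccnb2 and 0.124 for Cdk1, and with a block for the arrays of high poly-A controls it was 0.0566 for Cdk1. Without control replicate 2 the adjusted p was 0.0527 for Plk1, 0.068 for Aurka, 0.0927 for Ccnb2 and 0.0788 for Ccna2. Without tumor replicate 1 it was 0.0814 for Cdk1, 0.0531 for Aurka and 0.0565 for Ccnb2, and without control replicate 1 it was 0.0968 for Cdk1.

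Of the remaining 3 genes of mitotic entry, none passed. Nek2, a kinase that separates centrosomes, measured 79.7 and 85.9 in control against 155 and 144 in tumor crypts, with a change of 0.73 ± 0.25 (adjusted p = 0.0666). Its control and DSS values (89.8 and 94.7 in DSS) were below the array medians, so Nek2 passed the filter only through its tumor arrays. Foxm1, a transcription factor known for driving late cell cycle genes, measured 132 and 158 in control, 147 and 147 in DSS and 126 and 131 in tumor crypts. Its change was -0.15 ± 0.23, with a 95% interval of -0.66 to 0.37 (adjusted p = 0.682). These values are near the array medians. The other 3 probe sets of Foxm1 were below the filter and differed in sign, with changes of -0.37, -0.18 and 0.79. Cks2, a small protein that binds Cdk1, measured 4234 and 4683 in control, 4272 and 4086 in DSS and 4755 and 3946 in tumor crypts, so that its groups overlapped. Its change was -0.04 ± 0.16, with a 95% interval of -0.40 to 0.32. A second probe set of Cks2 had a change of -0.07, and with quantile normalization the tested one had 0.08.

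Of 5 spindle checkpoint genes 4 rose, and the median of the 5 was 0.98. Mad2l1, which encodes the checkpoint protein Mad2, measured 762 and 699 in control, 757 and 694 in DSS and 2198 and 1757 in tumor crypts. Its rise of 1.41 ± 0.18 (adjusted p = 0.00123) was the second largest among the members, and the control and DSS arrays nearly coincided. Bub1, a kinase at unattached kinetochores, measured 249 and 263 in control, 261 and 248 in DSS and 512 and 534 in tumor crypts, a rise of 0.98 ± 0.17 (adjusted p = 0.00556). Bub1b, known as BubR1, rose by 1.01 ± 0.22, and Bub3, the partner of both, by 0.90 ± 0.23. The second probe set of Bub3 had a change of 0.26 that was not called (adjusted p = 0.495 with every probe set tested). With the mean over its probe sets Bub3 had 0.58 (adjusted p = 0.0573), and with median centring 0.65 (adjusted p = 0.113). Without control replicate 2 the adjusted p of Bub1b was 0.0718 and that of Bub3 0.143. Without tumor replicate 1 that of Bub3 was 0.0792, and that of Bub1b was 0.0532 without control replicate 1 and 0.0839 without tumor replicate 2. Ttk, the checkpoint kinase also called Mps1, measured 132 and 153 in control against 254 and 219.8 in tumor crypts, which missed the threshold (0.67 ± 0.27, adjusted p = 0.116).

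The 3 members that act with the anaphase promoting complex went in both directions. Cdc20, the activator that the checkpoint holds back, measured 1459 and 705 in control, 1479.8 and 988 in DSS and 2661 and 2531 in tumor crypts. It rose by 1.34 ± 0.33 (adjusted p = 0.0223), and control replicate 2 was lower than replicate 1 by 1.03 on the log2 scale. Ube2c, the ubiquitin-conjugating enzyme of the complex, rose by 1.09 ± 0.18 (adjusted p = 0.00433), from 723 and 584 to 1516 and 1295. Pttg1, or securin, which blocks the protease separase until anaphase, measured 3506 and 3815 in control, 3220.4 and 3735 in DSS and 2426 and 2295 in tumor crypts. Both tumor arrays were below the other 4, with a change of -0.63 ± 0.15 (adjusted p = 0.0229). All 3 probe sets of Pttg1 past the filter were lower in tumor crypts, with changes of -0.63, -0.87 and -0.97, and their tumor arrays lay below their control arrays. The adjusted p of Pttg1 was 0.0543 without control replicate 1, 0.117 without control replicate 2 and 0.0905 without tumor replicate 2. Cdc20 had an adjusted p of 0.0942 without control replicate 2, 0.0505 without tumor replicate 1 and 0.0592 without tumor replicate 2.

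Centromere and kinetochore genes had the lowest median of the 8 roles, 0.56, and 1 of 4 tested rose. This was Cenpa, the histone variant that marks centromeres, which measured 439 and 429 in control against 911 and 624 in tumor crypts (0.77 ± 0.22, adjusted p = 0.0388). Its call was lost without any 1 of 5 arrays, all but tumor replicate 2, with adjusted p of 0.0528 to 0.151, and for Cenpa it was also lost with quantile normalization (adjusted p = 0.0834) and with median centring (adjusted p = 0.177). Ndc80 and Nuf2 encode partners in the complex that grips microtubules. Ndc80 measured 90.4 and 83.5 in control against 177 and 124 in tumor crypts (0.67 ± 0.32, adjusted p = 0.175). Nuf2 measured 192 and 285 in control, 172 and 169 in DSS and 282 and 238 in tumor crypts, with overlapping control and tumor groups and a change of 0.14 ± 0.24 (95% interval -0.40 to 0.68). The sign of that change turned with quantile normalization (-0.05) and with median centring (-0.11). The change of Cenpf, a large protein of the outer kinetochore, was 0.45 ± 0.18 (adjusted p = 0.112). Cenpe, a kinetochore motor, was under the filter and not tested, with values of 68.4 and 73.8 in control, 70.9 and 81.9 in DSS and 165 and 98.0 in tumor crypts.

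In the chromosomal passenger complex, which corrects wrong attachments and then moves to the central spindle, 2 of 3 measured members rose. The kinase Aurkb measured 147 and 95.6 in control, 115 and 132 in DSS and 291 and 311 in tumor crypts (1.22 ± 0.25, adjusted p = 0.0109), and its second probe set gave 1.19. Survivin (Birc5) measured 586 and 472 in control, 606 and 482 in DSS and 1165 and 1055 in tumor crypts (1.05 ± 0.19, adjusted p = 0.00679). Without control replicate 2 the adjusted p of Aurkb was 0.0668. Incenp, the scaffold of the complex, measured 821 and 510.3 in control, 626 and 681 in DSS and 856 and 1739.6 in tumor crypts. Its tumor replicate 2 stood 1.01 above replicate 1 on the log2 scale, and its change of 0.90 ± 0.34 was not called (adjusted p = 0.0931). Without tumor replicate 1 the change was 1.40, with the higher replicate 2 as the only tumor array.

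Among proteins that build the spindle, Tpx2, a microtubule nucleation factor and activator of Aurka, measured 146 and 126 in control, 141 and 144 in DSS and 294 and 333 in tumor crypts. It rose by 1.11 ± 0.21 (adjusted p = 0.00724). Kif11, the motor that pushes spindle poles apart, had a rise of 0.67 ± 0.20 (adjusted p = 0.0456), a call lost when any 1 of the 6 arrays was left out (adjusted p 0.0844 to 0.182), with quantile normalization (0.118) and with median centring (0.207). Nusap1, which bundles spindle microtubules, measured 528 and 673 in control against 1118 and 737 in tumor crypts, which missed the threshold (0.59 ± 0.23, adjusted p = 0.102). Without tumor replicate 2 its change was 0.89, with the higher replicate 1 as the only tumor array.

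Of 6 genes of the central spindle and cytokinesis 5 rose, and the median of the 6 was 1.06. Racgap1, a subunit of centralspindlin, measured 132 and 84.5 in control, 122 and 124 in DSS and 256 and 318 in tumor crypts, a rise of 1.29 ± 0.26 (adjusted p = 0.0101). Its second probe set had a change of 0.75 that was not called (adjusted p = 0.0519 with every probe set tested). Ect2, the exchange factor that Racgap1 recruits to activate RhoA, measured 416 and 381 in control, 353 and 376 in DSS and 816 and 977 in tumor crypts. Its rise of 1.13 ± 0.18 (adjusted p = 0.00335) was well beyond the spread within groups. Prc1, which crosslinks the antiparallel microtubules of the midzone, measured 245 and 229 in control, 196 and 255 in DSS and 514 and 499 in tumor crypts (1.04 ± 0.19, adjusted p = 0.0072), and its other probe set gave 1.52. The kinesins of the midzone Kif20a and Kif23 rose by 1.07 ± 0.21 and 0.87 ± 0.18. Another kinesin, Kif4, measured 133 and 129 in control, 90.1 and 108 in DSS and 219 and 180.4 in tumor crypts without passing (0.54 ± 0.24, adjusted p = 0.137). Without tumor replicate 2 the adjusted p was 0.0538 for Racgap1 and 0.0633 for Kif23, and without control replicate 2 it was 0.0623 for Racgap1 and 0.0526 for Kif23.

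The members of chromosome structure held both the largest rise and several genes that did not pass, with 2 of 5 called and a median of 0.80. Top2a, the topoisomerase that untangles sister chromatids, measured 786 and 728 in control, 707 and 660.0 in DSS and 1989.8 and 2284 in tumor crypts. Its rise of 1.47 ± 0.16 (adjusted p = 0.000708), a ratio of mean intensities of 2.82, was the largest of the 37. Its second probe set was below the filter. Smc2, a core subunit of condensin, measured 569 and 644 in control, 491 and 512 in DSS and 1190.3 and 1191 in tumor crypts (0.96 ± 0.16, adjusted p = 0.00477). Smc4, its partner in condensin, measured 1171 and 1229 in control, 1285 and 1139.7 in DSS and 1806 and 1577 in tumor crypts (0.49 ± 0.16, adjusted p = 0.0669). Mki67, the gene of the proliferation antigen Ki-67 that coats mitotic chromosomes, measured 1071 and 1014 in control, 962 and 1235 in DSS and 1349 and 2035 in tumor crypts. Both tumor arrays were above the other 4, yet they lay 0.59 apart, and its change of 0.66 ± 0.23 did not pass (adjusted p = 0.0721). Ncapd2, a subunit of condensin I, had 188 and 129.5 in control against 197 and 411 in tumor crypts (0.80 ± 0.34, adjusted p = 0.127). Without tumor replicate 1 the change was 0.95 for Mki67 and 1.30 for Ncapd2. Replicate 2, the higher for both genes, was then the only tumor array, so the spread between tumor arrays was not measured.

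**Figure D2:**
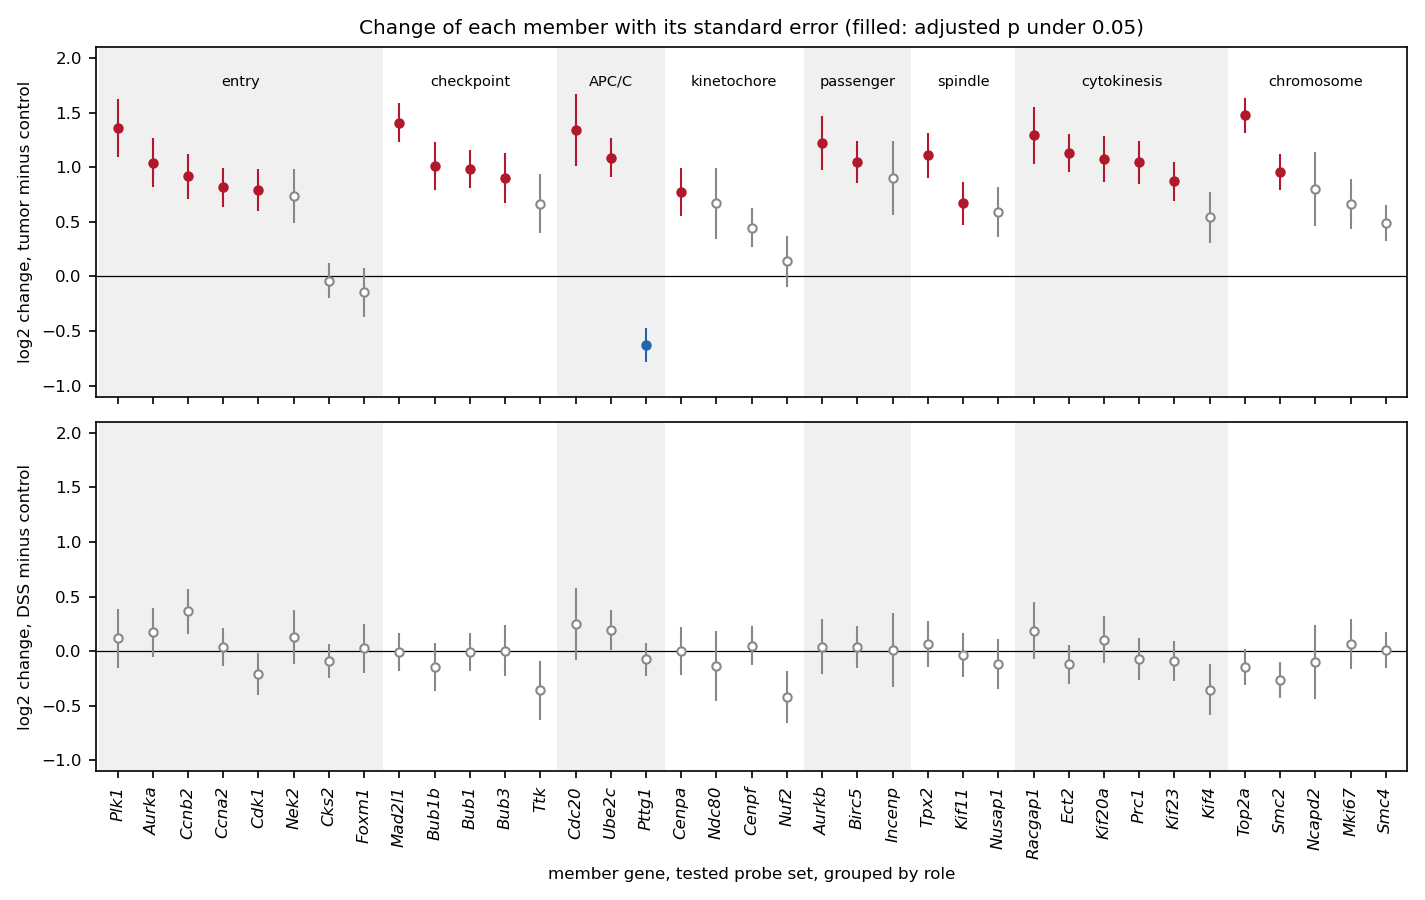
Log2 change of each tested member with its standard error, tumor minus control in the upper panel and DSS minus control in the lower, n = 2 and 2 arrays, filled where the adjusted p is under 0.05 (red higher, blue lower). In the upper panel 23 points are red and Pttg1 is blue, and in the lower panel all 37 points are open and lie between -0.42 and 0.37.

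The tumor rise as a whole did not rest on 1 array. The median change of the members was 0.78 to 0.99 with any 1 array left out, and 0.95 without tumor replicate 2. The number of calls did: 11 of 37 members were called without control replicate 2, all of them higher, against 19 to 22 without any other single array. Called whichever array was left out were 10 members, namely Birc5, Bub1, Ect2, Kif20a, Mad2l1, Prc1, Smc2, Top2a, Tpx2 and Ube2c. Of 11 members with more than 1 probe set past the filter, all had probe sets of 1 sign in this comparison.

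Markers of other cells were also read. In tumor against control, Lyz2 was called higher among 5 leukocyte genes tested (3.89 ± 0.66), and Fn1 among 8 fibroblast genes (2.34 ± 0.49). No smooth muscle gene was called, though all 6 tested were below 0, nor was the 1 endothelial gene tested. In all 3 groups the sums below were higher on replicate 2. Tumor and control sums overlapped for fibroblast, smooth muscle and endothelial markers. Leukocyte markers (13 genes) summed to intensities of 830 and 1623 in control, 549 and 1909 in DSS and 3422 and 9050 in tumor crypts. On the tumor arrays the macrophage and neutrophil gene Lyz2 alone gave 2755 and 5154 of that, and without it, a step chosen after the values were seen, the sums were 710 and 1163 in control against 666 and 3896 in tumor crypts. The T and B cell genes Cd3e, Cd3g, Cd79a and Cd79b were under 50 on all 6 arrays. Fibroblast markers (10 genes) summed to 2295 and 4277 in control, 2971 and 5445 in DSS and 1893 and 9734 in tumor crypts, and smooth muscle markers (7 genes) to 725 and 3766, 1278 and 3605, and 374 and 1209. Endothelial markers (7 genes) summed to 185 and 427, 180.1 and 459, and 303 and 1281. Above the array median were 2 to 5 of the 13 leukocyte genes on the control, DSS and first tumor arrays and 9 on tumor replicate 2. Tumor replicate 2 was thus the array with the highest leukocyte, fibroblast and endothelial sums. The leukocyte sum of tumor replicate 1 was above those of both control arrays with Lyz2 counted, and below both without it. The part of these cells and of RNA quality in the members' changes was not tested.

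DSS crypts were set against control crypts to see whether day 2 of injury had moved these genes. No member was called, and neither was any of the 7456 genes (0.0%), with limma's smallest adjusted p at 0.198. At an unadjusted p under 0.05 there were 187 genes, of which 0 were members. The median change was 0.00 over the 37 members and 0.00 over all genes, with 19 members above 0 and 18 below. The changes ranged from -0.42 to 0.37. Both DSS arrays lay above both control arrays for 4 members (Ccnb2, Aurka, Ube2c and Nek2), where 12.8% of all genes did. They lay below for 7 members (Top2a, Cdk1, Bub1b, Nuf2, Kif4, Ect2 and Smc2), against 13.7% of all genes.

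The 4 members of smallest p in that comparison stood apart only slightly from the rest. Ccnb2 measured 573 and 450.4 in control and 734 and 593 in DSS crypts, with a change of 0.37 ± 0.21 and a 95% interval of -0.11 to 0.84 (unadjusted p = 0.112 in limma's fit over all genes). Nuf2, at 192 and 285 in control and 172 and 169 in DSS crypts, had -0.42 ± 0.24 (95% interval -0.96 to 0.12). For both genes the nearest arrays of the 2 groups were closer to each other than the 2 control arrays were. Smc2 had -0.26 ± 0.16 (95% interval -0.64 to 0.11) and Kif4 -0.35 ± 0.24 (95% interval -0.89 to 0.19). The intervals of the fixed markers were of like width, with -0.46 to 0.59 for Mki67, -0.52 to 0.23 for Top2a and -0.50 to 0.74 for Plk1. Changes of that size could thus not be detected here, and a missed threshold does not show equal levels. Probe sets of 1 gene also went different ways in 6 of 11 members (Aurkb, Ccna2, Incenp, Prc1, Racgap1 and Smc4). For Smc4, as an example, the tested probe set had 0.01 and the others -0.16 and -0.18, and for Aurkb the 2 had 0.04 and -0.09.

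**Figure D3:**
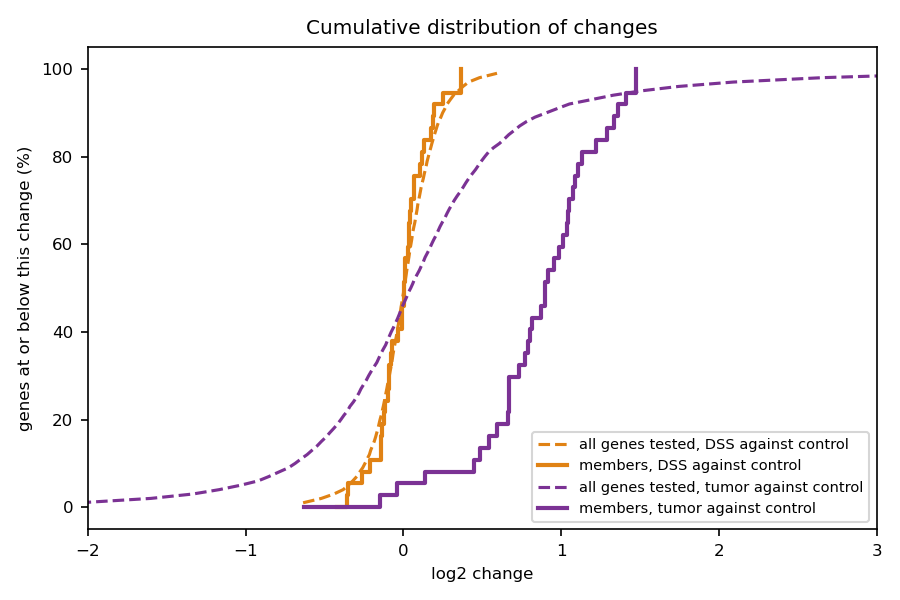
Share of genes (%) at or below each log2 change, for the 37 members (solid steps) and all 7456 genes tested (dashed), in DSS against control (orange) and tumor against control (purple). The members follow all genes in the DSS comparison, around medians of 0.00, and lie to the right of them in the tumor comparison, with medians of 0.90 and 0.05.

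Tumor crypts were also set against DSS crypts. This comparison shares its tumor arrays with the one above, so the values are given side by side and are not a second observation of the rise. Of 37 members, 24 rose (64.9%) and Pttg1 fell, where 14.9% of all genes were called higher and 11.3% lower. The members' median was 0.89, against 0.04 over all genes. All 5 checkpoint genes and all 6 genes of the central spindle and cytokinesis were called, since Ttk (1.03 ± 0.27, adjusted p = 0.027) and Kif4 (0.89 ± 0.24, adjusted p = 0.0262) passed here. Ccnb2 did not (0.55 ± 0.21, adjusted p = 0.085). These calls moved with the processing: the adjusted p of Ttk was 0.0751 with quantile normalization, 0.0693 with median centring and 0.0598 with no filter, and that of Kif4 was 0.0721, 0.081 and 0.057. The adjusted p of Bub3 was 0.105 with median centring and 0.0978 with the mean over its probe sets (0.47), of which the second had 0.05.

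The largest rises over DSS crypts were those of Top2a (1.62 ± 0.16, adjusted p = 0.000409), Mad2l1 (1.42 ± 0.18) and Ect2 (1.25 ± 0.18). Plk1 had 1.24 ± 0.27, Smc2 1.22 ± 0.16, Aurkb 1.18 ± 0.25, Bub1b 1.16 ± 0.22 and Prc1 1.12 ± 0.19, all called. Bub1b measured 122 and 120.2 in control, 108 and 108 in DSS and 236 and 292 in tumor crypts, and the 2 arrays of the control group nearly coincided, as did those of the DSS group. Pttg1 had -0.55 ± 0.15 (adjusted p = 0.0327, and 0.0571 with no intensity trend). Without DSS replicate 1, and also without DSS replicate 2, 11 of 37 members were called, with medians of 0.90 and 0.89. The adjusted p of Plk1 was 0.0544 and 0.0555 in these 2 fits and 0.0597 without tumor replicate 2. That of Aurkb was 0.0733 without DSS replicate 1, and that of Pttg1 0.0592 to 0.225 without any 1 of the DSS or tumor arrays. For Ttk it was 0.0554 to 0.169 without DSS replicate 2 or either tumor array, and for Kif4 0.0764 to 0.162 without either DSS array or tumor replicate 1. Called whichever array was left out were Bub1, Bub1b, Cdk1, Ect2, Mad2l1, Prc1, Smc2 and Top2a.

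Replicate arrays of a group lay somewhat closer for the members than for all genes. The median absolute difference between replicates was 0.16, 0.12 and 0.22 on the log2 scale for the members in control, DSS and tumor crypts, and 0.24, 0.18 and 0.25 for all genes. The members did not shift together, with median signed differences (replicate 2 minus replicate 1) of -0.08 in control and -0.07 in tumor crypts. Of 37 members 14 were higher on control replicate 2, among them Cdk1, while Cdc20 was lower there by 1.03 and Plk1 by 0.67. In tumor crypts Incenp, Ncapd2 and Mki67 were higher on replicate 2, and Nusap1 and Cenpa were lower by 0.59 and 0.53.

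Genes of mitosis that are no members were read from further lists. Of 45 such genes tested, 20 rose in tumor crypts and 0 fell (44.4% higher), with a median of 0.67. Cks1b, the paralog of Cks2, measured 1109.6 and 916 in control, 759 and 844 in DSS and 2799 and 3100.1 in tumor crypts. Its rise was 1.53 ± 0.17 (adjusted p = 0.000743), beside a change of -0.04 for Cks2 itself. The contractile ring protein Anln rose by 1.19 ± 0.17 and Cdca5, or sororin, a regulator of sister chromatid cohesion, by 1.22 ± 0.19. Of 12 genes of the anaphase promoting complex tested, only Anapc4 was called higher, by 0.62 ± 0.16 (adjusted p = 0.0277), and the median was 0.28. That is 8.33% called higher, against 12.9% of all genes. Of the 12 changes 2 were below 0, the lowest that of Anapc13 (-0.55 ± 0.17, adjusted p = 0.0502). Against DSS crypts Anapc13 was called lower (-0.60 ± 0.17, adjusted p = 0.033). Of 8 cohesin genes, whose products hold sister chromatids together or load and release that ring, 0 were called at a median of 0.03, with Stag2 alone at an unadjusted p under 0.05 (-0.47 ± 0.20, adjusted p = 0.133). Among 7 genes of centrosome duplication, Tubg1, or gamma-tubulin, rose by 1.33 ± 0.27 and the kinase Plk4 by 0.91 ± 0.20.

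Genes of DNA replication, the stage of the cell cycle before mitosis, are set beside the members for their DSS values. The 7 MCM genes are mostly subunits of the helicase that unwinds DNA in S phase. In tumor against control their median was 1.27, with 7 of 7 called higher, against 12.9% of all genes tested. In DSS against control their median was -0.63, with 6 of 7 below 0, Mcm2 at 0.91 ± 0.31 and 0 called. Mcm6 had the lowest change, with 775 and 680.2 in control and 276 and 418 in DSS crypts (-1.06 ± 0.24, adjusted p = 0.857). For 31 further replication genes the tumor median was 0.73 with 17 called higher (54.8%), and the DSS median was -0.27 with 26 below 0. Among these 17, Cdc6 measured 93.4 and 46.2 in control, 51.4 and 29.7 in DSS and 158 and 219 in tumor crypts. Its change was 1.27 (adjusted p = 0.0431 with limma). The control and DSS values were below the array medians, so Cdc6 passed the filter only through its tumor arrays. The further mitosis genes had a DSS median of -0.17 with 35 of 45 below 0. Among them were Ncapg of condensin (-0.64 ± 0.22) and the cohesin protector Sgo1 (-0.55 ± 0.20), neither called. Of all 7456 genes tested, 3645 had a DSS change below 0, with a median of 0.00 and 0 called. The difference between these lists and the members in DSS crypts was not tested.

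**Figure D4:**
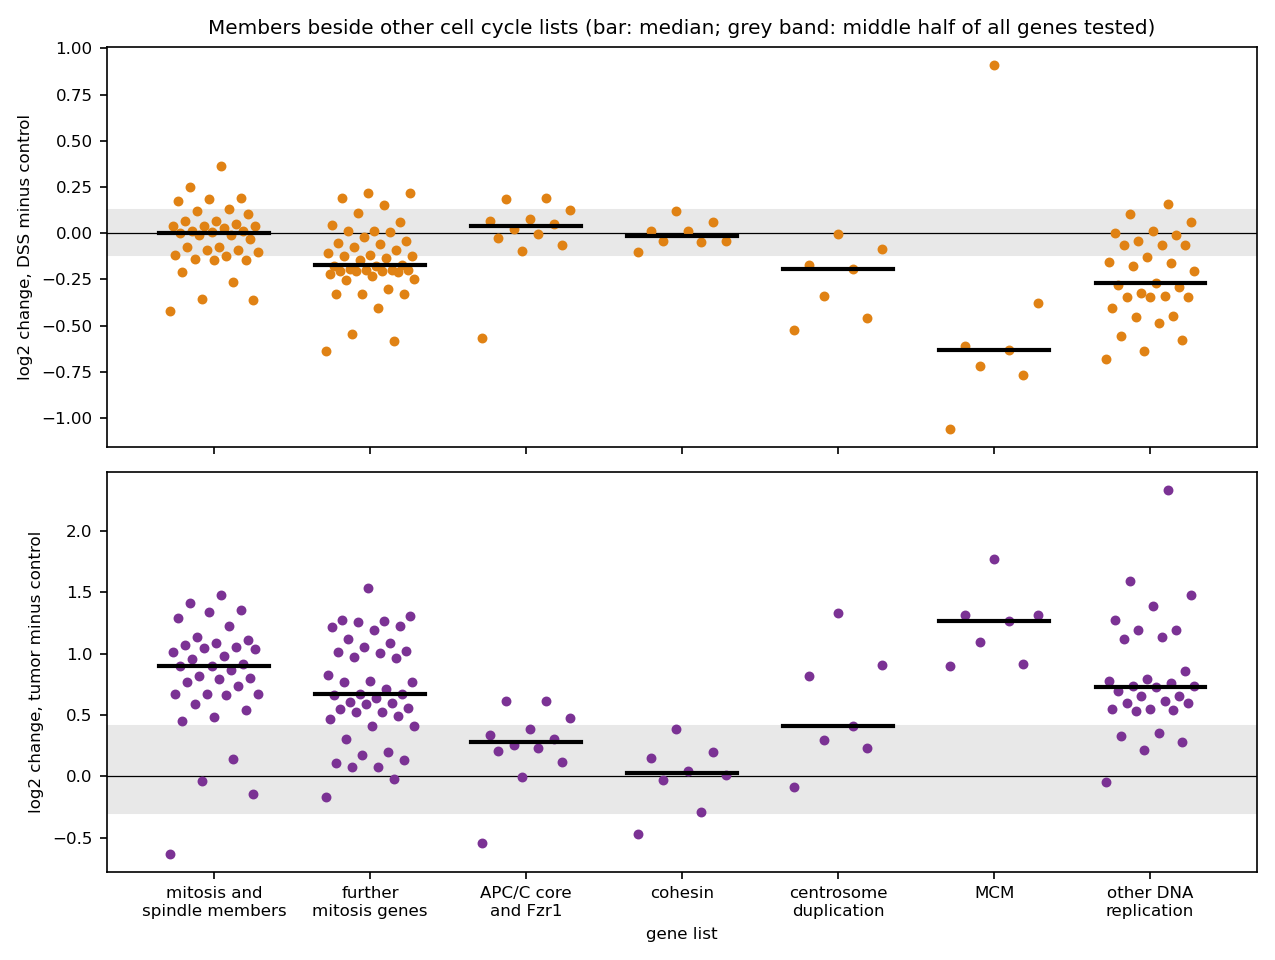
Log2 change of each tested gene (points) and the median (bar) for the members and 6 other lists of cell cycle genes, DSS minus control in the upper panel and tumor minus control in the lower, with the grey band holding the middle 50% of all genes tested. The members' median is 0.00 in the upper panel, where that of the MCM genes is -0.63, and 0.90 in the lower, where that of cohesin is 0.03.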

How the data were processed

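The deposited values were linear MAS5 intensities, 1 for each probe set and array, as the authors made them with MAS5, per the submitters' processing notes; its version is not given in the sources used here. Each array's mean, with the highest and lowest 2% left out, was near 499.9, and no further scaling was applied. Probe sets with 1 gene symbol were used (20380, of which 99.86% had a gene identifier known to RefSeq; 691 had several symbols and 1555 none). The constant 17.8, the 25th percentile over the table, was added before log2 was taken. A probe set was kept if 2 or more arrays had it above the array median, and the one of highest mean was tested for each gene. The fit held all 3 groups (limma 3.58.1, R 4.3.3, eBayes with an intensity trend, 2-sided, Benjamini-Hochberg over 7456 genes, threshold 0.05). The fit was also run on simulated arrays with independent noise. These held no differences of scaling or cell content between arrays, so they bear on the code and not on the calls here. The number of arrays limits the precision.

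The members and lists were chosen with earlier results of these data known. Genes named with all values were Mki67, Top2a, Foxm1, Plk1, Cdk1, Aurka and Aurkb, the 8 largest called changes of a comparison or the 4 of smallest p where none was called, members that opposed the median at p under 0.05, and members whose probe sets differed in sign. From other lists at most 3 genes of smallest p were named in a comparison, and beyond these Ccne1, Cdc6 and Cdkn2b. Further members were given values to account for all of them. Alternatives covered scaling, pseudocount, filter, probe set handling, trend, 2-group fits, blocks and each array left out. The groups come from the sample titles. Python 3.11.15 with matplotlib 3.10.9 drew the figures.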

Additional observations from a re-analysis of the deposited data

How the results depend on the processing

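In all settings run, the members' median was above 0 in both tumor comparisons and 0 members were called in DSS against control. For tumor against control the median was 0.65 with each array centred on its median and 0.73 with a pseudocount at the median of all values, and 0.78 to 0.99 with 1 array left out. For tumor against DSS these values were 0.66, 0.71 and 0.89 to 1.00, and for DSS against control the median with 1 array left out was -0.09 to 0.02. The larger pseudocount shrinks changes by construction, and centring moved the median over all genes from 0.05 to -0.20 against control and from 0.04 to -0.19 against DSS. Of 18 members left by a filter at the 75th percentile, 13 were called in each tumor comparison. Median centring left 18 members called against control and 16 against DSS (24 and 25 before). With 1 array left out, 11 to 22 and 11 to 25 members were called, and 0 to 0 in DSS against control; the lowest counts came without control replicate 2 in the first and without either DSS array in the second, and fewer arrays were then fitted, with the lone array of a group assumed to vary like the other groups. The share of all calls that were higher went from 56.9% to 34.6% with centring and 49.3% with quantile normalization against control, and from 56.8% to 35.8% and 49.4% against DSS. The labels tie the replicate numbers to no shared animals. With the number as a replicate block in the fit of 3 groups, 26 members were called against control, 27 against DSS and 0 in DSS against control, and with the replicate block in fits of 2 groups 24, 33 and 0, where 121 genes were called in DSS against control (52 higher, 69 lower). A block for the arrays of high poly-A controls gave 21 and 22.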

Other observations

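Regulators of the earlier G1 phase, which decide whether a cell enters the cycle, were measured for 13 genes. In tumor against control crypts 6 rose (46.2%, against 12.9% of all genes) and 1 fell, with a median of 0.61. The 1 that fell was the inhibitor gene Cdkn2b, from 1267 and 1066 to 770 and 705 (-0.65, adjusted p = 0.0279 with limma). Cdk4, the kinase partner of D-type cyclins, measured 669 and 633 in control, 496 and 496 in DSS and 1583 and 1562 in tumor crypts, a rise of 1.25 ± 0.16 (adjusted p = 0.00118 with limma). Cyclin D1 (Ccnd1) rose by 1.50 ± 0.24, from 1132 and 686 to 2721 and 2341. Cdkn1c, an inhibitor of cyclin-dependent kinases also known as p57, rose as well, from 78.0 and 43.3 to 409.7 and 541 (2.68 ± 0.30, adjusted p = 0.000695). On all control and DSS arrays Cdkn1c and Ccne1, both among the 6 that rose, lay below the array median. Both genes passed the filter only through their tumor arrays. In DSS against control the median of these 13 genes was -0.09, with 9 below 0 and 0 called. Of all 7456 genes tested, 3645 were below 0 there and 0 were called.

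Of ribonucleotide reductase, the enzyme that makes the building blocks of DNA, Rrm2 measured 277 and 169 in control, 238 and 162 in DSS and 1043 and 1293 in tumor crypts, a rise of 2.33 ± 0.27 (adjusted p = 0.000924 with limma). Its other subunit gene Rrm1 rose by 1.39 ± 0.21, from 457 and 451 to 1122 and 1324.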
